A study of Homo sapiens with 8 samples.

Results

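The aminoacyl-tRNA synthetases described here are the 36 genes of the deposited table whose symbol is a single letter followed by ARS, with or without a closing 1 or 2, together with EPRS, FARSA, FARSB and PARS2. They were 36 of 18216 genes, and the rule uses symbols only. A symbol ending in 2 was taken as the mitochondrial enzyme, which gave 19 cytosolic and 17 mitochondrial genes. VARS was not analysed here. The cells were IMR90 at passage 28, a line of human fibroblasts from lung, grown in DMEM with 10% serum at 3% oxygen and 5% carbon dioxide. All groups shared these conditions and carried no genetic change named in the labels. Groups were given either DMSO or 3 µg/mL of Nutlin-3a, the latter for 6, 9 or 12 h, and polyA RNA was sequenced from 2 libraries per group. Nutlin-3a keeps the ubiquitin ligase MDM2 from binding p53. The sources used here do not give how long the DMSO cells were kept, and exposure to Nutlin-3a and time in culture cannot be told apart. The labels also do not say that replicates were separate cultures. Each p-value rests only on the spread between these libraries, which may be technical. That spread is taken partly from the gene itself and mostly from genes of similar level.

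Aminoacyl-tRNA synthetases attach each amino acid to its tRNA and so supply the ribosome with charged tRNA. The cytosol and the mitochondria use different enzymes for most amino acids, and both sets are encoded in the nucleus. GARS and KARS serve both compartments from a single gene, and EPRS joins the glutamate and proline enzymes in 1 protein. Several cytosolic enzymes sit in the multi-synthetase complex on the scaffold proteins AIMP1, AIMP2 and EEF1E1, and the others act outside it. Many cytosolic synthetase genes are known targets of ATF4, a transcription factor made when amino acids are short or protein folding is strained. ATF4 binds, with a C/EBP partner, to a composite element of the form TGATGNAA.

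The deposited values are counts per gene after scaling by library size factors, called normalized counts below and given as replicate 1 and then replicate 2. Between 21.9 and 33.6 M (1e6) reads per library fell in genes, and 3 reads, the smallest number treated as a measurement, corresponded to a normalized count of 2.46 to 3.75. Fibroblast genes were high in all libraries (COL1A1 from 437741 to 589696), while the epithelial gene CDH1 and the leukocyte gene PTPRC stayed at or below 5.77. Other markers of cells that are not fibroblasts were somewhat higher. EPCAM of epithelium ran from 17.3 to 28.9, and VWF of endothelium from 11.5 to 42.3. The smooth muscle genes MYH11 and DES reached 54.7 and 25.4. The targets of p53 followed the labels, with CDKN1A, the p21 cell cycle inhibitor, at 4954 and 4670.0 in DMSO and at 52553 or more in each Nutlin-3a library. Replicates differed most in DMSO, where the SD of the log2 difference was 0.174 over 11461 genes, against 0.118 to 0.129 in the other groups. Over the synthetases the median absolute log2 difference between replicates was 0.0762 in DMSO and 0.0337 to 0.0447 under Nutlin-3a. In bulk RNA, fewer cells of a kind and less RNA per cell cannot be told apart.

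Promoter sequence was available for 30 of the 36 genes, as the 250 bases before and 50 after the RefSeq start site in GRCh38.p14. Among those without an entry were AARS2, DARS, LARS, VARS2 and YARS. The letters TGATGNAA, on either strand, stood in 6 of 16 cytosolic and 1 of 14 mitochondrial promoters, and in 3.67% of 27305 promoters of the same length. The stretches of the 6 cytosolic promoters with the match are shown because they hold the element that ATF4 is known to bind, followed by stretches just before the start of SARS and FARSB, whose windows hold no match. Each is written 5′ to 3′ on the strand of its gene, and capitals mark the match.
AARS, chr16:70289662-70289721, minus strand, 215 to 156 bases before the start: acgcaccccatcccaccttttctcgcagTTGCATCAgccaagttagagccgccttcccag
CARS, chr11:3057404-3057493, minus strand, from 70 bases before the start to base 20 of the transcript: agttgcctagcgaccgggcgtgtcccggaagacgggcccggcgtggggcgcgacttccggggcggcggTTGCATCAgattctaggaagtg
IARS, chr9:92293698-92293767, minus strand, the 70 bases before the start: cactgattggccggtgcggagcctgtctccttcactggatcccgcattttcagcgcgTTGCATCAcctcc
MARS, chr12:57487998-57488087, plus strand, from 70 bases before the start to base 20: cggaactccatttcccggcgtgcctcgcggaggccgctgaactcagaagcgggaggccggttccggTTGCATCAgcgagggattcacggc
NARS, chr18:57621812-57621906, minus strand, from 70 bases before the start to base 25: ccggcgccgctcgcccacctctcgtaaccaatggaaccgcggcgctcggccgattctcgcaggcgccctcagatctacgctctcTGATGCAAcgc
TARS, chr5:33440895-33440984, plus strand, from 70 bases before the start to base 20: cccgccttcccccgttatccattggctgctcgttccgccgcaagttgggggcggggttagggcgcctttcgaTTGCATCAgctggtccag
SARS, chr1:109213823-109213892, plus strand, the 70 bases before the start: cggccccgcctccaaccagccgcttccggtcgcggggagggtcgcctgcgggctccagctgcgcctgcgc
FARSB, chr2:222656093-222656162, minus strand, the 70 bases before the start: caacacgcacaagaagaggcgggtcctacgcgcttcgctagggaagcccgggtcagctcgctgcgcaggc
In CARS, IARS, MARS, NARS and TARS the match lay within 25 bases of the annotated start, and in AARS it began 187 bases before it. All of them read TTGCATCA on the gene's strand except NARS, which read TGATGCAA. A match is a run of letters, and binding was not measured here.

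At 6 h of Nutlin-3a the cytosolic synthetases moved apart from one another. Of 19 genes 9 rose against DMSO and 4 fell, where 16.1% of the 14074 genes tested rose and 20.6% fell. The share that rose was thus above that of all genes, and the share that fell was close to it. Genes are called here at an adjusted p under 0.05 in limma. The 9 were AARS, CARS, GARS, MARS, NARS, SARS, TARS, WARS and YARS, and the 4 were FARSA, FARSB, KARS and RARS. Without the 6 h replicate 1 library the number that fell was 2. The median log2 change was 0.05 over the cytosolic genes and −0.01 over all genes tested. The mitochondrial genes, of which 16 of 17 could be tested, had 2 that rose and 4 that fell, close to the shares of all genes, with a median of −0.11. Those counts were 1 higher without either 6 h library and 2 lower without DMSO replicate 1, 6 h replicate 1 or either 9 h library. Cytosolic genes had a median normalized count of 4720 in these libraries, mitochondrial genes 704 and all genes tested 582, so a change of a given size was easier to call in the cytosolic group.

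**Figure D1:**
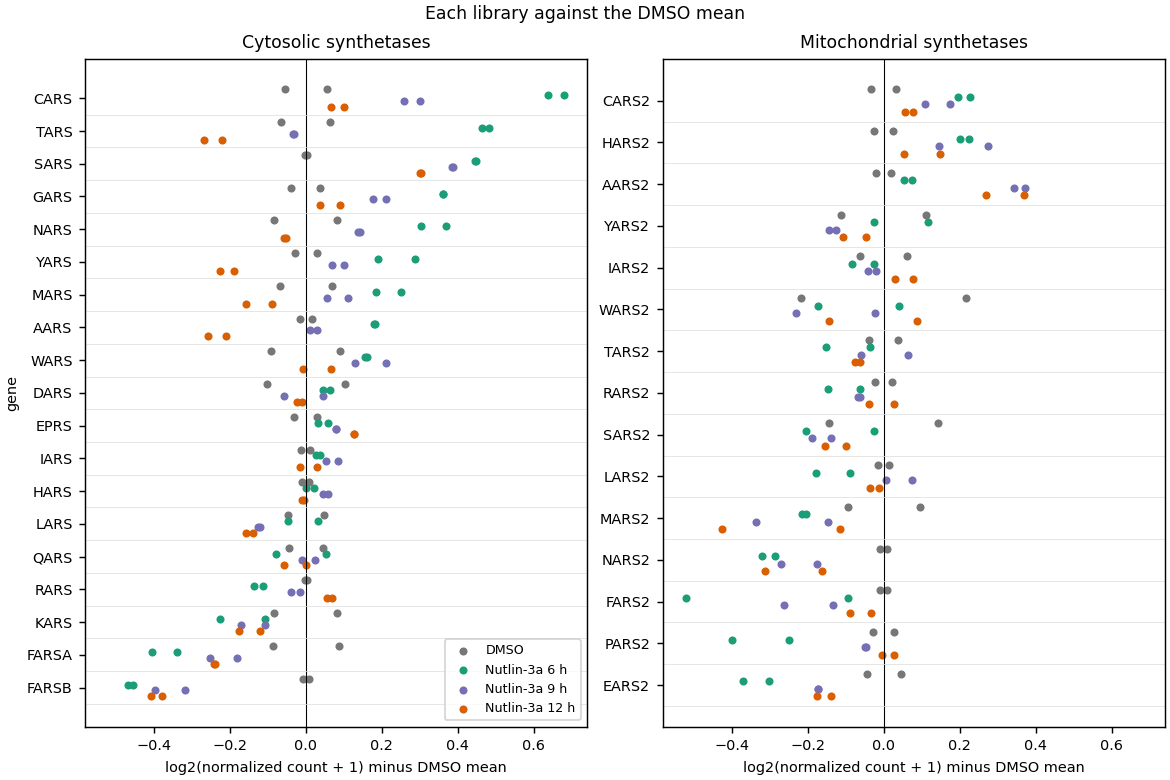
Each point is 1 library, and the x axis gives log2(normalized count + 1) minus the DMSO mean for the genes on the y axis, ordered by their 6 h change. Among the cytosolic genes the 6 h points lie farthest right for CARS, TARS and SARS and farthest left for FARSB, while the 12 h points of TARS, AARS and YARS lie left of both DMSO points.

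Later times gave different counts against the same DMSO libraries. At 9 h, 5 cytosolic genes rose (16.2% of all genes) and 2 fell (19.1%), and at 12 h 2 rose (18.5%) and 7 fell (21.4%). With quantile normalization 3369 of all genes rose and 2482 fell at 12 h, in place of 2603 and 3007. The 9 h counts were 3 higher and 1 lower without 9 h replicate 2, and the 12 h count was 1 higher without either 12 h library. Mitochondrial genes had 3 higher and 3 lower at 9 h, and 1 higher and 2 lower at 12 h. Without 9 h replicate 2 those 9 h counts were 1 and 1, and without 9 h replicate 1 the lower count was also 1. At 12 h the mitochondrial counts became 2 higher and 4 lower without DMSO replicate 2, and 1 lower without 12 h replicate 2. The median change of the cytosolic genes was 0.05 at 9 h and −0.03 at 12 h, and that of the mitochondrial genes −0.10 and −0.04, while all genes had a median of 0.01 at both times.

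The direct comparison of 12 h with 6 h, which shares the 6 h libraries with the comparison above, set the cytosolic genes apart in direction. There 9 of 19 fell, where 17.1% of all genes fell, and 1 rose, where 14.4% rose. The genes that fell were AARS, CARS, GARS, LARS, MARS, NARS, SARS, TARS and YARS, and the gene that rose was RARS. The median was −0.13 over the cytosolic genes and 0.05 over the mitochondrial ones, of which 2 rose and 2 fell. The cytosolic count of 1 higher became 2 without either DMSO library. The mitochondrial counts moved more: 5 were higher without either DMSO library, 1 without 6 h replicate 1, either 9 h library or 12 h replicate 2, and 0 without 12 h replicate 1, and 1 was lower without any of the 6 Nutlin-3a libraries. Between 6 and 9 h, 6 cytosolic genes fell (9.9% of all genes) and 0 rose (8.52%) in limma, with 2 higher at an unadjusted p under 0.05. Between 9 and 12 h again 6 fell (2.92%) and 0 rose (1.08%), with 0 higher at an unadjusted p under 0.05. Across all 4 groups an F test called 13 of 19 cytosolic and 6 of 16 mitochondrial genes, against 49.9% of all genes.

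CARS, the cytosolic cysteine enzyme, had the largest increase of the family. Its normalized counts were 2401 and 2226 in DMSO, 3599 and 3702 at 6 h, 2846 and 2767 at 9 h, and 2477 and 2421 at 12 h. All Nutlin-3a libraries lay above both DMSO libraries, with the 6 h libraries highest. The increase was 0.66 ± 0.05 on the log2 scale at 6 h (1.58-fold, limma, adjusted p = 3.55e-09) and 0.28 ± 0.05 at 9 h. At 12 h the difference from DMSO was 0.08 ± 0.05 and was not called, except without DMSO replicate 1 (0.14). From 6 to 12 h CARS fell by 0.58 on the log2 scale.

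TARS, which charges threonine tRNA, went above and then below its control level. It had 6027 and 5512 in DMSO, 8044 and 7947 at 6 h, 5628 and 5644 at 9 h, and 4784 and 4950.1 at 12 h. The 6 h libraries were the highest, the 9 h libraries lay between the DMSO libraries and the 12 h libraries were the lowest. TARS rose by 0.47 ± 0.05 at 6 h (adjusted p = 1.74e-07) and differed by −0.24 ± 0.05 at 12 h (adjusted p = 0.000419), with −0.03 at 9 h. Its fall from 6 to 12 h, −0.72 ± 0.05, was the largest among the 35 tested synthetases. AARS, the alanine enzyme, ran the same way, with 4431 and 4339 in DMSO, 4971 and 4968 at 6 h, 4421 and 4477 at 9 h, and 3787 and 3668 at 12 h. Its log2 change was 0.18 ± 0.05 at 6 h, 0.02 at 9 h and −0.23 ± 0.05 at 12 h, and YARS, the tyrosine enzyme, had 0.24 ± 0.05, 0.09 and −0.21 ± 0.05. In AARS and YARS too, the 6 h and 12 h groups overlapped neither DMSO nor each other.

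SARS, the serine enzyme, stayed high for longer. Its normalized counts were 6382 and 6409 in DMSO, 8724 and 8705 at 6 h, 8365 and 8351 at 9 h, and 7895 and 7879 at 12 h, so the libraries of each group lay close together and the groups did not overlap. The change was 0.45 ± 0.04 at 6 h (adjusted p = 5.47e-08), 0.39 ± 0.04 at 9 h and 0.30 ± 0.04 at 12 h (1.23-fold). SARS was called higher at all 3 times under each alternative tried. The decline from 6 to 12 h was −0.14 ± 0.04, and it was no longer called without either 6 h library (−0.14 and −0.15) or either 12 h library (−0.15 and −0.14).

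GARS and NARS, for glycine and asparagine, rose less and returned to the level of DMSO by 12 h. GARS had 9575 and 9081 in DMSO, 11976 and 11963 at 6 h, 10534 and 10783 at 9 h, and 9567 and 9924 at 12 h. NARS had 6217 and 6973 in DMSO, 8495 and 8121 at 6 h, 7266 and 7239.7 at 9 h, and 6326 and 6353 at 12 h. In both genes the 6 h libraries were the highest, and at 12 h 1 library of each lay between the DMSO libraries in GARS and both did in NARS. The log2 change at 6 h was 0.36 ± 0.04 for GARS (adjusted p = 2.08e-06) and 0.34 ± 0.05 for NARS (adjusted p = 2.94e-05). At 9 h it was 0.19 ± 0.04 and 0.14 ± 0.05. The 9 h call of NARS was lost without DMSO replicate 1 (0.06), where the value without DMSO replicate 2 was 0.22. That call was also lost without any 1 of the 6 Nutlin-3a libraries (0.14). The authors' deposited tests did not call NARS at 9 h (DESeq2, adjusted p = 0.0613). Without DMSO replicate 1, NARS was called lower at 12 h (−0.14). WARS, the tryptophan enzyme, had 4824 and 4254 in DMSO, 5045 and 5068 at 6 h, 4949.9 and 5240.0 at 9 h, and 4745 and 4509.9 at 12 h, and its DMSO libraries lay as far apart as its change was large. Its change was 0.16 ± 0.06 at 6 h and 0.17 ± 0.06 at 9 h, and it was 0.07 and 0.08 without DMSO replicate 2, both not called, and 0.25 and 0.26 without DMSO replicate 1, where WARS was also called at 12 h (0.12). The 6 h call was also lost without either 6 h library (0.16), and the 9 h call without 9 h replicate 2 (0.13). HARS, for histidine, stayed within 0.05 of DMSO at each time.

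FARSA and FARSB, the catalytic alpha subunit and the beta subunit of the cytosolic phenylalanine enzyme, fell at all 3 times. FARSB had 2930.3 and 2901 in DMSO, 2106 and 2128 at 6 h, 2213 and 2339.5 at 9 h, and 2199 and 2240.4 at 12 h. FARSA had 2733 and 2419 in DMSO, 1941 and 2033 at 6 h, 2266 and 2159 at 9 h, and 2175 and 2178 at 12 h. Every Nutlin-3a library of both genes lay below both DMSO libraries. FARSB fell by 0.46 at 6 h (adjusted p = 4.47e-07), 0.36 at 9 h and 0.39 at 12 h, each with a standard error of 0.05, and FARSA by 0.37, 0.22 and 0.24, with a standard error of 0.06. For FARSA the wide DMSO pair mattered: without DMSO replicate 1 its 9 h change was −0.13 and not called and its 12 h change −0.15, and the 9 h call was also lost without 9 h replicate 2 (−0.18). Without the intensity trend of the model FARSA was not called at 9 or 12 h (adjusted p = 0.078 and 0.0525). They were the only cytosolic enzymes outside the multi-synthetase complex to fall at 6 h, and the only synthetase made of different subunits.

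**Figure D2:**
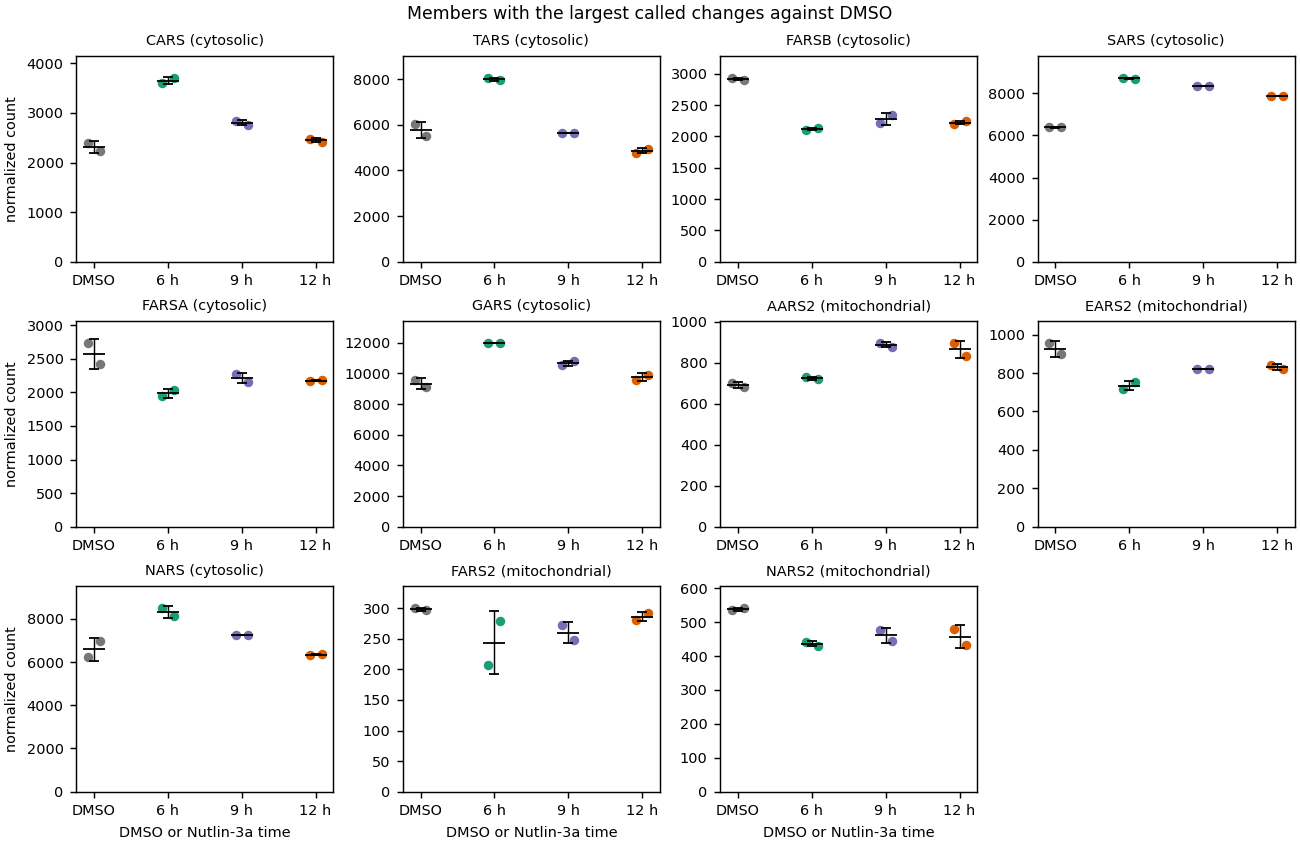
Normalized counts of 11 of the 12 synthetases with the largest called changes against DMSO, by group on the x axis, with 1 point per library, the mean as a line and bars of 1 SD (n = 2), on linear axes that start at 0. CARS and TARS are highest at 6 h, AARS2 is higher at 9 and 12 h than in DMSO, and FARSA, FARSB and NARS2 lie below DMSO in all Nutlin-3a groups.

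Cytosolic enzymes were also described by their place in the multi-synthetase complex, to which 8 belong and 11 do not. Of the 8, 1 rose and 2 fell at 6 h and again at 12 h, while of the 11, 8 rose and 2 fell at 6 h, 5 and 2 at 9 h, and 1 and 5 at 12 h. Over all genes tested 16.1% rose and 20.6% fell at 6 h, 16.2% and 19.1% at 9 h, and 18.5% and 21.4% at 12 h, so the counts in the complex at 6 and 12 h were near those of all genes. At 9 h, 0 of the 8 were called in limma, edgeR or DESeq2, with 2 lower at an unadjusted p under 0.05. The median log2 change at 6 h was 0.01 in the complex and 0.24 outside it, and from 6 to 12 h it was −0.02 and −0.30. These are counts and medians of chosen genes, and the difference between the sets was not tested. MARS, the methionine enzyme, was the complex member that rose at 6 h, with 5054 and 4600.2 in DMSO, 5479 and 5731 at 6 h, 5207 and 5013 at 9 h, and 4532 and 4325 at 12 h. It rose by 0.22 ± 0.05 (adjusted p = 0.0026; 0.0596 without the intensity trend) and fell by 0.34 from 6 to 12 h. Its 9 h difference of 0.08 was called without DMSO replicate 1 (0.15), and its 12 h difference of −0.12 without DMSO replicate 2 (−0.19).

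Among the other enzymes of the complex, RARS, for arginine, was the one that fell at 6 h and rose afterwards. It had 4968 and 4947 in DMSO, 4510.4 and 4584 at 6 h, 4826 and 4906 at 9 h, and 5151 and 5196 at 12 h. Its 6 h change of −0.12 ± 0.04 was lost without either 6 h library (−0.11 and −0.14) or any 9 h or 12 h library (−0.12), while the rise from 6 to 12 h, 0.19 ± 0.04, held in every alternative. KARS, the lysine enzyme, had 4809.9 and 4286 in DMSO, 3880.0 and 4215 at 6 h, 4031 and 4215 at 9 h, and 4019 and 4178 at 12 h. Its decrease of −0.17 ± 0.06 at 6 h shrank to −0.08 without DMSO replicate 1 and to −0.11 without 6 h replicate 1, and neither was called. At 12 h the change of −0.15 ± 0.06 was lost without DMSO replicate 1 (−0.07) or any 1 Nutlin-3a library (from −0.12 to −0.18). Without DMSO replicate 2 it was −0.23. The authors' deposited tests did not call KARS at 12 h (DESeq2, adjusted p = 0.0654). Its 9 h difference of −0.14 was called without DMSO replicate 2 (−0.22). LARS, for leucine, changed by −0.15 ± 0.05 at 12 h, a call lost without DMSO replicate 2 (−0.10) or either 12 h library (−0.14 and −0.16). The 12 h decline of LARS against 6 h, −0.14 ± 0.05, was lost without 6 h replicate 1 (−0.10), either 9 h library (−0.14) or either 12 h library (−0.13 and −0.15), and at 9 h LARS was called without DMSO replicate 1 (−0.17).

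EPRS, which charges both glutamate and proline tRNA, had 8558 and 8927 in DMSO, 9107 and 8928 at 6 h, 9241 and 9234 at 9 h, and 9543 and 9540.1 at 12 h. Its rise of 0.13 ± 0.04 at 12 h was lost without DMSO replicate 1 (0.10) or either 12 h library (0.13), and at 9 h EPRS was called without DMSO replicate 2 (0.11). IARS and QARS, for isoleucine and glutamine, were not called in any comparison, with log2 changes against DMSO from 0.01 to 0.07 in IARS and from −0.03 to 0.01 in QARS. DARS, for aspartate, had 2643 and 3049 in DMSO, 2967 and 2928 at 6 h, 2725 and 2929.7 at 9 h, and 2794 and 2817 at 12 h and was not called in the full fit, and its 6 h difference of 0.05 was called without DMSO replicate 2 (0.16). The non-enzymatic subunits behaved differently from one another. AIMP1 had 1234 and 1604 in DMSO, 1548 and 1576 at 6 h, 1496 and 1509 at 9 h, and 1485 and 1556 at 12 h, with 1 DMSO library below all others. Its change of 0.15 ± 0.08 at 6 h was not called, but without DMSO replicate 2 it was 0.34, 0.28 and 0.30 at 6, 9 and 12 h and called each time. AIMP2 had 505 and 390.0 in DMSO, 402 and 456 at 6 h, 387 and 412 at 9 h, and 356 and 348 at 12 h. It fell by 0.33 ± 0.10 at 12 h, not called without DMSO replicate 1 (−0.15) or either 12 h library (−0.35 and −0.32), and −0.52 without DMSO replicate 2. Without DMSO replicate 2 it was also called at 6 h (−0.24) and 9 h (−0.34). EEF1E1, also called AIMP3, had 242 and 291 in DMSO, 238 and 224 at 6 h, 179 and 194 at 9 h, and 183 and 235 at 12 h. It fell by 0.51 ± 0.12 at 9 h and 0.36 ± 0.12 at 12 h. The 12 h call was lost without DMSO replicate 2 (−0.23) or 12 h replicate 1 (−0.18), with −0.54 without 12 h replicate 2, and the 6 h difference of −0.20 was called without DMSO replicate 1 (−0.33).

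**Figure D3:**
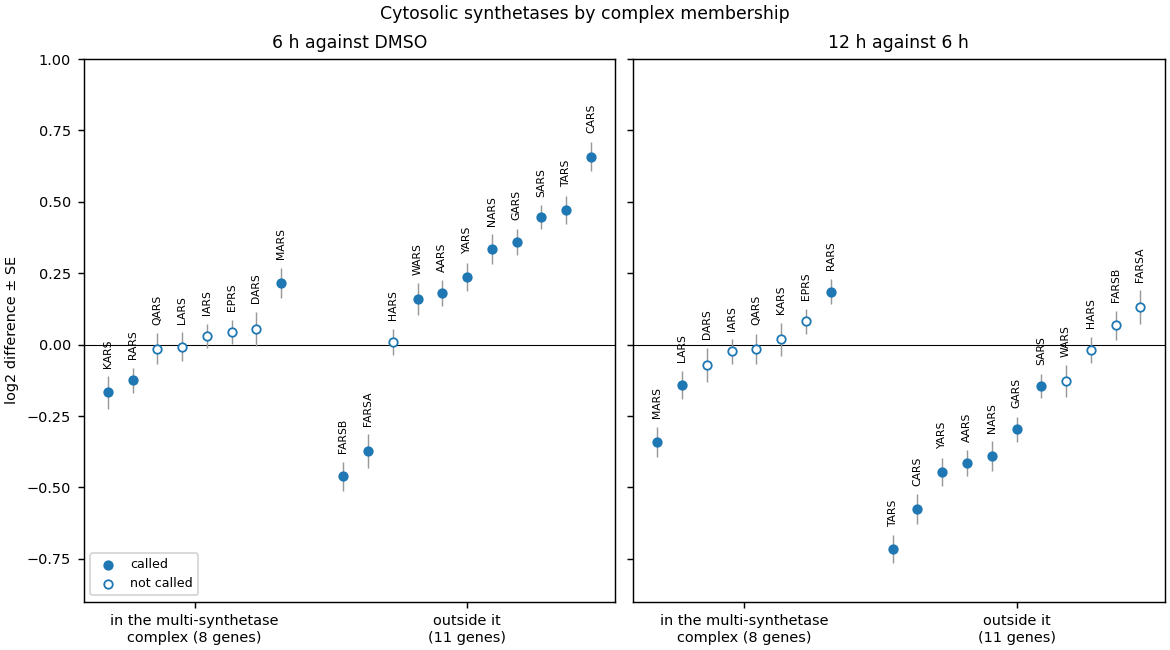
Log2 difference with its standard error for each cytosolic synthetase, at 6 h against DMSO on the left and at 12 h against 6 h on the right, split by membership of the multi-synthetase complex. Filled points were called and open points were not. Outside the complex 8 of 11 genes rose at 6 h and 7 of 11 fell from 6 to 12 h, and in the complex MARS rose and then fell.

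Mitochondrial enzymes showed few large changes, and these went in both directions. AARS2, the alanine enzyme, was higher at the later times, with 702 and 683 in DMSO, 729 and 719 at 6 h, 896 and 879 at 9 h, and 895 and 836 at 12 h. Its 9 h and 12 h libraries all lay above the DMSO and 6 h libraries. The change was 0.06 at 6 h, 0.36 ± 0.07 at 9 h (adjusted p = 0.000218) and 0.32 ± 0.07 at 12 h, and the rise from 6 to 12 h of 0.26 ± 0.07 was lost without 12 h replicate 1 (0.21).

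EARS2, the mitochondrial glutamate enzyme, was lowest at 6 h. It had 956 and 898 in DMSO, 717 and 751 at 6 h, 822 and 822 at 9 h, and 842 and 821 at 12 h. It fell by 0.34 ± 0.07 at 6 h (adjusted p = 0.000378) in every alternative, and the smaller difference of −0.17 ± 0.07 at 9 h was lost without DMSO replicate 1 (−0.13) or any 1 Nutlin-3a library (−0.17). The rise from 6 to 12 h, 0.18 ± 0.07, was lost without any 1 of the 6 Nutlin-3a libraries (0.15 to 0.21), and at 12 h EARS2 was called against DMSO without DMSO replicate 2 (−0.20). NARS2, for asparagine, had 535 and 541 in DMSO, 442 and 430.5 at 6 h, 476 and 446 at 9 h, and 480.4 and 433 at 12 h, with every Nutlin-3a library below DMSO. It fell by 0.30 ± 0.08 at 6 h, and differed by −0.22 ± 0.08 at 9 h and −0.24 ± 0.08 at 12 h. The 9 h call was lost without DMSO replicate 2 (−0.21) or either 9 h library (−0.27 and −0.18), and the 12 h call without 12 h replicate 2 (−0.16). FARS2, the single-chain phenylalanine enzyme, had 300.1 and 297 in DMSO, 208 and 279.6 at 6 h, 272 and 248 at 9 h, and 281 and 291 at 12 h. Its 6 h change of −0.31 ± 0.12 rested on 6 h replicate 1: it was −0.09 without that library and −0.52 without 6 h replicate 2. The call was also lost without DMSO replicate 1 (−0.30) or any 9 h or 12 h library (−0.31). From 6 to 12 h FARS2 differed by 0.25, called without either DMSO library, and by 0.46 without 6 h replicate 2.

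CARS2 and HARS2, for cysteine and histidine, were the mitochondrial genes that rose at 6 h. CARS2 had 1609 and 1685 in DMSO, 1886 and 1929 at 6 h, 1858 and 1776 at 9 h, and 1713 and 1738 at 12 h. HARS2 had 991 and 1026 in DMSO, 1158 and 1178 at 6 h, 1116 and 1219.6 at 9 h, and 1046 and 1118 at 12 h. Their 6 h and 9 h libraries all lay above DMSO. The change at 6 h was 0.21 ± 0.05 for CARS2 and 0.21 ± 0.06 for HARS2, and at 9 h 0.14 ± 0.05 and 0.21 ± 0.06. The HARS2 calls were lost at 6 h without either 6 h library (0.22 and 0.20) and at 9 h without 9 h replicate 2 (0.15). For CARS2 the 9 h call was lost without DMSO replicate 1 (0.11) or any 1 Nutlin-3a library (0.11 to 0.17). The authors' deposited tests did not call CARS2 at 9 h (DESeq2, adjusted p = 0.11). The fall of CARS2 from 6 to 12 h, −0.14 ± 0.05, was lost without any 1 Nutlin-3a library (−0.13 to −0.16).

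The remaining mitochondrial enzymes named here were not called against DMSO in the full fit. IARS2, LARS2, RARS2, TARS2 and YARS2 lay between −0.13 and 0.05 of DMSO on the log2 scale, LARS2 rising between 6 and 9 h by 0.17 ± 0.06. TARS2, the threonine enzyme, had 649 and 616 in DMSO, 569 and 617 at 6 h, 661 and 607 at 9 h, and 606 and 600.4 at 12 h. The serine enzyme SARS2 had 330.4 and 271 in DMSO, 294 and 259 at 6 h, 272 and 262 at 9 h, and 279 and 268 at 12 h, and 3 of the 6 Nutlin-3a values lay between its DMSO values. MARS2, PARS2 and WARS2 had the fewest counts of the tested members and wide intervals: their 6 h changes were −0.21 ± 0.12, −0.32 ± 0.13 and −0.07 ± 0.13. Without DMSO replicate 2, SARS2 was called lower at 9 and 12 h (−0.31 and −0.27), WARS2 lower at 9 h (−0.34) and IARS2 higher at 12 h (0.12). Without DMSO replicate 1, YARS2 was called lower at 9 h (−0.25) and MARS2 at 9 and 12 h (−0.34 and −0.36). MARS2 was also called at 12 h without 12 h replicate 1 (−0.43). From 6 to 12 h, IARS2 (0.11), PARS2 (0.34), FARSA (0.13) and WARS (−0.13) were called without either DMSO library. VARS2, the valine enzyme, stood at 3.12 or less in every library and at 0 in both 6 h libraries, at or below the 3-read floor, and was not tested.

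Pairs of enzymes for the same amino acid were compared for 16 combinations, with EPRS set against both EARS2 and PARS2 and FARS2 against both cytosolic phenylalanine subunits. At 6 h the log2 change of the cytosolic enzyme was above that of its mitochondrial partner in 12 of 16, with a median difference of 0.21. It was above in 10 at 9 h and in 8 at 12 h, with medians of 0.11 and −0.02, and from 6 to 12 h in 2 of 16, with a median of −0.21. The widest gap at 6 h was for asparagine, where NARS changed by 0.34 and NARS2 by −0.30. For threonine the values were 0.47 and −0.09, for serine 0.45 and −0.11, and for cysteine 0.66 and 0.21. Histidine and both phenylalanine pairs went against the majority, as did arginine by 0.02. The alanine pair crossed over time: AARS fell from 6 to 12 h while AARS2 rose. The group with the highest mean was 6 h for 9 of 19 cytosolic genes, and DMSO for 8 of 17 mitochondrial genes, the untested VARS2 among the 17. The same was not counted over all genes, so whether either share is unusual is not known.

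**Figure D4:**
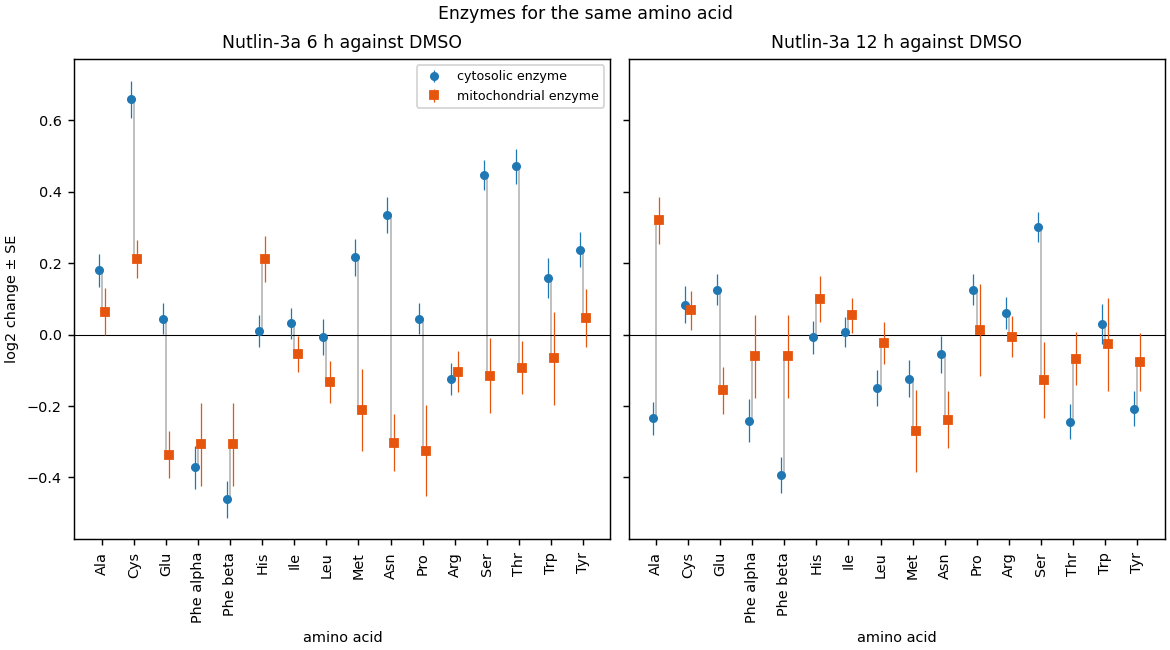
Log2 change against DMSO with its standard error for the cytosolic enzyme (circle) and the mitochondrial enzyme (square) of each amino acid on the x axis, at 6 h on the left and 12 h on the right. At 6 h the circle lies above the square in 12 of 16 pairs, and at 12 h in 8.

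Levels were compared between genes only after division by the summed exon length of each gene in GENCODE 29, which need not be the authors' annotation. In DMSO the cytosolic enzymes ranged from 741 ± 39.5 normalized counts per kb for CARS to 3517 ± 132 for GARS, and the tested mitochondrial ones from 55.2 ± 1.53 for PARS2 to 1267 ± 77.3 for IARS2 (mean ± SD, n = 2). The ratio of cytosolic to mitochondrial level per kb in DMSO was 0.846 ± 0.0726 for cysteine, the only pair below 1, and 31.6 ± 0.0686 for EPRS against PARS2. Serine (24.5 ± 3.51) and methionine (18.3 ± 2.91) had the next highest ratios. Summed over genes, cytosolic synthetases held 97893 ± 1172 normalized counts in DMSO, 109135 ± 568 at 6 h, 102737 ± 304 at 9 h and 96222 ± 246 at 12 h. The corresponding mitochondrial sums were 16056 ± 251, 15498 ± 152, 15729 ± 51.9 and 15748 ± 107. The cytosolic sum was thus highest at 6 h, while the mitochondrial sum was highest in DMSO.

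Cytosolic synthetases on a list of genes known as ATF4-responsive (12) held all the increases of their compartment at 6 h, since 9 of the 12 rose, while 4 of the 7 others fell. That split of 9 higher and 0 lower on the list was the same at an unadjusted p under 0.05, in edgeR and in DESeq2, and off the list 0 were higher by any of these. WARS was not called at 6 h in the authors' deposited tests (DESeq2, adjusted p = 0.0539), with quantile normalization or with only the 2 groups compared. Without the intensity trend neither WARS nor MARS was called. At 12 h 2 on the list rose and 4 fell, and from 6 to 12 h 9 of the 12 fell. The remaining 31 genes of an ATF4 amino acid response list had 24 higher and 3 lower at 6 h, 15 and 6 at 9 h, and 11 and 10 at 12 h, and medians of 0.50, 0.18 and 0.06. Beside both lists, 16.1% of all genes rose and 20.6% fell at 6 h, 16.2% and 19.1% at 9 h, 18.5% and 21.4% at 12 h, and 17.1% fell from 6 to 12 h. These lists were drawn up with earlier results of the same libraries known and are no independent evidence. ATF4 itself had 4651 and 4007 in DMSO, 5268 and 5642 at 6 h, 3903 and 3977 at 9 h, and 4070.1 and 3984 at 12 h. It rose by 0.34 ± 0.06 at 6 h and differed by −0.13 ± 0.06 and −0.10 ± 0.06 later, which was called without DMSO replicate 2 (−0.24 and −0.21). ASNS, asparagine synthetase, rose by 0.47 ± 0.05 at 6 h and 0.31 ± 0.05 at 9 h. SLC7A5, a subunit of the large neutral amino acid transporter, had 0.88 ± 0.05 at 6 h, 0.21 ± 0.05 at 9 h and −0.23 ± 0.05 at 12 h, and its 9 h call was lost without 9 h replicate 1 (0.15). SESN2, a sestrin that is also a target of p53, and DDIT4, an inhibitor of mTORC1 signalling, were still 1.66 ± 0.06 and 1.04 ± 0.06 above DMSO at 12 h.

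Most of the genes that held the promoter match rose at 6 h. Of the 6 cytosolic genes with TGATGNAA, 5 rose at 6 h, the exception being IARS at 0.03. Of the 10 without the letters, 3 rose (GARS, SARS and WARS) and 4 fell. All 6 genes with the match, and these 3, are on the list of ATF4-responsive synthetases, and the 4 that fell are not. The split by the match therefore repeats in part the split by that list, and the part of each was not tested. Of all genes 16.1% rose and 20.6% fell at 6 h. From 6 to 12 h, 5 of the 6 fell, and of the other 10, 2 fell and 1 rose, where 17.1% of all genes fell and 14.4% rose. The median change at 6 h was 0.28 with the match and −0.00 without it. The mitochondrial promoter with the match was that of YARS2, which was not called in the full fit. A further 3 motifs were searched on both strands. CACGTG, the E-box that MYC binds, was in 4 of 30 promoters (CARS2, EARS2, IARS and MARS2) and in 7.43% of all promoters. TTTGAA, the CHR element of cell cycle genes, was in 1 (GARS) and in 15.4% of all promoters. The palindromic consensus of the factor NRF1 was in 1 (MARS2) and in 1.36% of all promoters.

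Genes that act next to the synthetases differed from one another in direction and size. XPOT, which exports tRNA from the nucleus, had 5197 and 5321 in DMSO, 6349 and 6084 at 6 h, 5130.2 and 5277 at 9 h, and 4517 and 4585 at 12 h, highest at 6 h and lowest at 12 h. Its changes were 0.24 ± 0.05 at 6 h, −0.02 at 9 h and −0.21 ± 0.05 at 12 h. Among 19 genes of tRNA processing and export 2 rose and 7 fell at 6 h, 1 and 8 at 9 h, and 0 and 10 at 12 h (1 higher in edgeR, 0 in DESeq2, 1 at an unadjusted p under 0.05), where 16.1%, 16.2% and 18.5% of all genes rose and 20.6%, 19.1% and 21.4% fell. The fallers were led by POP7 and RPP25, subunits of RNase P, at −0.85 ± 0.08 and −1.73 ± 0.19 at 12 h. SEPSECS, which makes selenocysteine on its tRNA, had 172 and 194 in DMSO, 298 and 229 at 6 h, 249.9 and 244 at 9 h, and 185 and 219 at 12 h. It rose by 0.51 ± 0.13 at 6 h, lost without 6 h replicate 1 (0.32), and 0.43 ± 0.13 at 9 h, lost without 9 h replicate 1 (0.41). Both calls were also lost without the intensity trend (adjusted p = 0.0534 and 0.0869). DTD2, on the same list as SEPSECS, was called higher from 6 to 12 h, lost without 6 h replicate 2 (0.28) or 12 h replicate 2 (0.27). In the full fit DTD2 was not called against DMSO. It was called without DMSO replicate 1 at 6 h (−0.26) and without DMSO replicate 2 at 12 h (0.22). TARSL2, a cytosolic paralog of TARS whose reads could be split with it, was 0.18 ± 0.07 from DMSO at 12 h, a call lost without DMSO replicate 2 or any 1 Nutlin-3a library (0.16 to 0.19). With all libraries, 0 of the 6 cytosolic elongation factors were called against DMSO at any time in limma, edgeR or DESeq2, and 0 had an unadjusted p under 0.05. The highest-ranked was EEF1B2, at −0.09 at 9 h. Without DMSO replicate 2, EEF1G was called lower at 6, 9 and 12 h (−0.19, −0.23 and −0.20) and EEF1D at 12 h (−0.11). QRSL1, GATB, GATC and MTFMT, which form mitochondrial glutaminyl-tRNA or formylate methionyl-tRNA, gave the same counts of 0, with changes from −0.17 to 0.10.

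Mitochondrial translation factors changed little, with MRRF, the ribosome recycling factor, the only one of 9 called against DMSO in the full limma fit. It fell by 0.26 ± 0.08 at 6 h, which was lost without DMSO replicate 1 (−0.20) or either 6 h library (−0.27 and −0.26), and its 12 h change of −0.21 without DMSO replicate 1 (−0.14) or any 1 Nutlin-3a library (−0.16 to −0.25). Of 11 nuclear regulators of mitochondrial biogenesis 4, 5 and 6 fell at 6, 9 and 12 h in limma and 0 rose, with 1 higher at an unadjusted p under 0.05 at 6 h and 0 higher in edgeR and DESeq2. Of all genes 20.6%, 19.1% and 21.4% fell at these times and 16.1%, 16.2% and 18.5% rose. MYC had 1559 and 1486 in DMSO, 958 and 965 at 6 h, 935 and 915 at 9 h, and 854 and 848 at 12 h. It fell by 0.84 ± 0.06 at 12 h. NRF1, nuclear respiratory factor 1, fell by 0.78 ± 0.08 at 12 h, and TFAM, the mitochondrial DNA packaging factor, by 0.71 ± 0.08. The 6 h decreases of NRF1 and TFAM were −0.29 and −0.33, of which that of NRF1 was lost without DMSO replicate 1 (−0.22) or 6 h replicate 2 (−0.28), and that of TFAM was −0.18 without DMSO replicate 2.

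Several synthetase genes start within 1 kb of another gene on the opposite strand in GENCODE 29, and the neighbours were looked up after the values were seen. Of 10 such pairs, both genes were called in the same direction in 1 at each time, both in opposite directions in 1 at 6 h, 2 at 9 h and 1 at 12 h, and 1 gene alone in 8, 4 and 5. Over all genes tested 16.1% rose and 20.6% fell at 6 h, 16.2% and 19.1% at 9 h, and 18.5% and 21.4% at 12 h. No other gene pairs were counted, so nothing about neighbours is read from these counts. ING1, 867 bases from CARS2, fell by 0.46 ± 0.08 at 6 h while CARS2 rose. UBFD1, 369 bases from EARS2, changed by 0.03 at 6 h, where EARS2 fell. TERF2IP, 857 bases from KARS, changed by 0.11, 0.28 and 0.36 at 6, 9 and 12 h and was called higher at the later 2 times. MRPS12, 348 bases from SARS2, was called lower at 6 and 12 h (−0.26 and −0.23). ORC3, 64 bases from RARS2, fell by 0.55 ± 0.06 at 6 h, where RARS2 was at −0.10. HARS and HARS2 start 436 bases apart, and HARS2 was called at 6 h with HARS at 0.01. Since the sources used here do not give the strand setting of the counting, reads shared by overlapping neighbours cannot be told apart.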

How the data were processed

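PolyA RNA of 8 libraries was measured, 4 groups of 2. Per the submitters' processing notes, STAR and DESeq2 were used with the build hg19. Which tool counted the reads, on which annotation and with which strand setting, is not given in the sources used here. Counts per gene scaled by library size factors, a normalized signal, were deposited by the authors. Per the file headers, their DESeq2 tables hold log2 fold changes, a test statistic score and p-values with their adjusted values. Of each library's total, 28.2 to 29.1% stood in 3 entries that name no gene, and these were left out. All values were whole multiples of 1 read (100% within 1e-06), and edgeR on these reads called 5085, 5105 and 5823 genes at 6, 9 and 12 h.

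The main test was limma 3.58.1 (R 4.3.3) with an intensity trend on log2(normalized count + 1). This scale understates changes of low genes. All libraries were in 1 fit with 4 residual degrees of freedom. The spread of each gene was drawn toward that of genes of similar level, with 15.5 prior degrees of freedom. Genes at 10 or more in at least 2 libraries were tested (14074), with Benjamini-Hochberg adjustment and a threshold of 0.05. Values with ± are a mean and SD (n = 2) for normalized counts and a change and standard error for log2. Groups of 2 cannot pass an exact permutation test, whose smallest p is 0.333. Tested on simulated data for 6 h against DMSO, the fit called 69.4 and 74% of genes changed by −0.4 and 0.4 on the log2 scale. It called 90 and 74% of those changed by −1 and 1, and 0.0656% of 13715 unchanged ones. The simulation changed far fewer genes than the 5160 called at 6 h in the data, and it gave each gene the same dispersion in every group. The cut-off on the unadjusted p depends on how many genes change, so these rates need not hold for the calls reported here.

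The members and lists were chosen with earlier results of these data known. The lists named the complex, its scaffold subunits, ATF4-responsive synthetases, other ATF4 genes, tRNA processing, amidotransferase, synthetase-like, elongation, mitochondrial translation and biogenesis genes. 1 mitochondrial member counts in the totals, counts and medians but is not reported by itself here, nor in the pairs for the same amino acid or the figures. Values in every library are given for 11 of the 12 members with the largest called changes against DMSO and a mean of at least 50, their partners for the same amino acid, and the scaffold subunits, and further members where a call hung on 1 library. From each further list up to 3 genes with the smallest F test p are named. Alternatives covered scaling, pseudocounts of 0.5 and 5, filters, weights, the replicate block, edgeR 4.0.16, DESeq2 1.42.0, the deposited tests and leaving out each library. No 2 replicates agreed within sampling noise (chi-square per degree of freedom 1.95 to 7.61). The value was highest in DMSO (7.61), while the main fit gives all groups 1 shared spread. With group weights, 4356 genes were called at 6 h against DMSO in place of 5160. From 6 to 12 h, 5334 were called in place of 4431.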

Additional observations from a re-analysis of the deposited data

Results flagged for a closer look

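For the synthetases named here the change at 12 h of Nutlin-3a differed from that at 6 h by a direct test of the 12 h against the 6 h libraries (limma, adjusted p under 0.05). Most of them were cytosolic and lower at 12 h: TARS by −0.72 on the log2 scale, CARS by −0.58, YARS by −0.45, AARS by −0.41, NARS by −0.39, MARS by −0.34, GARS by −0.3, and SARS and LARS by −0.14 each. RARS was the cytosolic gene that was higher at 12 h, by 0.19. Among the mitochondrial genes AARS2 was higher by 0.26 and EARS2 by 0.18, while CARS2 was lower by −0.14. The differences of AARS, CARS, GARS, MARS, NARS, RARS, TARS and YARS were called in all 20 alternatives run for this comparison.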

How the results depend on the processing

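Of 58 called changes of single synthetases, 34 stayed called in every alternative (12 of 19 at 6 h, 6 of 13 at 9 h, 7 of 12 at 12 h and 9 of 14 from 6 to 12 h), and 0 changed sign while called. The following counts moved by more than 1.5 times, and the cause was not tested. Cytosolic genes lower at 6 h, 4 in the report, were 2 without the intensity trend and with only the 2 groups compared. Cytosolic genes higher at 9 h, 5 in the report, were 3 under those same settings, and those higher at 12 h were 1. Without the trend, cytosolic genes lower at 9 h were 1 and at 12 h 4, and mitochondrial genes higher were 1 at 6 h and 1 at 9 h. Single calls lost without the trend were those of FARS2, HARS2, KARS, MARS, RARS, WARS, SEPSECS and TFAM at 6 h, CARS2, EARS2, FARSA, HARS2, NARS, NARS2, WARS, EEF1E1, SEPSECS and SLC7A5 at 9 h, EPRS, FARSA, KARS, LARS, AIMP2, EEF1E1, MRRF and SLC7A5 at 12 h, and CARS2, EARS2, LARS, SARS, AIMP2, MTIF3, POP7, SEPSECS and TFAM from 6 to 12 h, while PARS2 was gained at 6 h (−0.32) and from 6 to 12 h (0.34). Mitochondrial genes lower at 6 h, 4 in the report, were 2, and at 9 h, 3 in the report, were 1, under TMM scaling, quantile normalization, only the 2 groups, group weights, DESeq2 and the authors' deposited tests, and at 9 h also without the trend. Quantile normalization gave 2 mitochondrial genes higher at 12 h, and it, DESeq2 and the authors' deposited tests gave 1 lower. Of the calls of synthetases named here, the deposited tests lacked FARS2 and WARS at 6 h. They also lacked CARS2, EARS2, NARS and NARS2 at 9 h, and KARS and NARS2 at 12 h. From 6 to 12 h, cytosolic genes higher were 2 with quantile normalization, only the 2 groups or group weights, mitochondrial genes higher were 4, 5 and 4 under these and 1 with no filter or DESeq2, and mitochondrial genes lower were 1 with TMM, quantile normalization, no filter, no trend, the replicate block, edgeR or DESeq2. Leaving out 1 library at a time gave, at 6 h, 2 to 4 cytosolic genes lower, 1 to 2 mitochondrial genes higher and 2 to 4 lower. At 9 h it gave 3 to 5 cytosolic genes higher and 1 to 3 lower, and 1 to 3 mitochondrial genes higher and 1 to 4 lower. At 12 h it gave 1 to 3 cytosolic genes higher, and 1 to 2 mitochondrial genes higher and 1 to 4 lower. From 6 to 12 h it gave 1 to 2 cytosolic genes higher, and 0 to 5 mitochondrial genes higher and 1 to 2 lower. With 1 library left in a group, that library is assumed to vary like the others. Over all genes, 4431 were called from 6 to 12 h, and 2931 without 12 h replicate 2.

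The replicate numbers are shared by the groups but no label says that they mark a common culture, and the replicate differences of different groups correlated by −0.03 to 0.03 across genes. With the replicate block 54 of the 58 calls were kept and 4 were lost, and mitochondrial genes lower from 6 to 12 h were 1. Depth limits VARS2, at or below the floor, and leaves intervals of PARS2, MARS2 and WARS2 wider than those of the abundant cytosolic enzymes.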
